A study of Mus musculus with 3 samples.

Results

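Ccr2, which encodes the chemokine receptor CCR2, and the genes of 4 of its monocyte-recruiting ligands, Ccl2, Ccl7, Ccl12 and Ccl8, were followed through the immune cells of the mouse pancreas. They were taken by gene symbol and make up 5 of the 31053 genes in the count tables. Single-cell RNA sequencing had been performed on live CD45+ cells sorted from pancreata of PBS-treated mice and of mice given whole β-glucan particles (WGP), a yeast cell wall preparation used to induce trained immunity, 3 days (3-day WGP) or 7 days (7-day WGP) before they were killed. The animals were wild-type C57BL/6J mice of both sexes, 6 to 8 weeks old, and WGP was a single intraperitoneal dose of 1 mg. Each group is 1 library, so a difference between groups has no replicate check and no test across mice is possible. The labels do not give the number of mice behind a library. The question here was which cell types hold the receptor transcripts, which hold the ligand transcripts, and how both differ between the libraries.

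CCR2 is a G protein-coupled receptor on inflammatory monocytes and on some lymphoid and dendritic cells. Monocytes use it to leave the bone marrow and to enter inflamed tissue. CCL2 and CCL7 are its principal agonists, CCL12 is a mouse chemokine that also acts through CCR2, and mouse CCL8 acts mainly through a related receptor, CCR8, and is also a ligand of CCR2. In mice Ly6C-high monocytes carry much more CCR2 than Ly6C-low monocytes, and most macrophages that settled in tissue before birth carry little.

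In the mm10 annotation the ligand genes lie in 1 cluster on chromosome 11, all protein coding and on the + strand. Ccl2 (ENSMUSG00000035385) occupies chr11:82035571-82037453, Ccl7 (ENSMUSG00000035373) chr11:82045712-82047525, Ccl12 (ENSMUSG00000035352) chr11:82101845-82103400 and Ccl8 (ENSMUSG00000009185) chr11:82115185-82116799, with 8258, 54319 and 11784 bases between neighbours. Ccr2 (ENSMUSG00000049103) is on the + strand of another chromosome, at chr9:124101950-124113557. The 4 ligand genes are paralogs whose coding sequences share 49.4 to 66.7% of aligned bases, and the longest run identical in any pair is 23 bases, in Ccl2 and Ccl7. The stretches printed here are the 90 coding bases that start 24 bases before the codons of the paired cysteines that give CC chemokines their name (those 2 codons in capitals), shown so that the likeness of the counted transcripts can be seen.
Ccl2: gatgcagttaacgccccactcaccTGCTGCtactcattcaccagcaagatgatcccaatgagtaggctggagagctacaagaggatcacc
Ccl7: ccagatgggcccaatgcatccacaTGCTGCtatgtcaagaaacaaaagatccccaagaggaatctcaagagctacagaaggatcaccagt
Ccl12: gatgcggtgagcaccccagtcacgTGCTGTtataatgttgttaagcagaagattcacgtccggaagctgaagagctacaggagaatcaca
Ccl8: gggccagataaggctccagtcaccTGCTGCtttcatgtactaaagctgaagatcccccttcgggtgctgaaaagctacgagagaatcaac

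Ccl12 and Ccl8 were held to at least 94.4% by monocyte/macrophage-like cells in every library, and the 250 bases before their starts are shown for that reason (RefSeq, GRCm38.p6, + strand, Ccl12 at chr11:82101595-82101844 and Ccl8 at chr11:82114935-82115184). The capitals mark TATAAA, the letters of the TATA box, and in Ccl8 also CTTCCTC, which is the other strand of GAGGAAG, a core motif of the myeloid factor PU.1.
Ccl12: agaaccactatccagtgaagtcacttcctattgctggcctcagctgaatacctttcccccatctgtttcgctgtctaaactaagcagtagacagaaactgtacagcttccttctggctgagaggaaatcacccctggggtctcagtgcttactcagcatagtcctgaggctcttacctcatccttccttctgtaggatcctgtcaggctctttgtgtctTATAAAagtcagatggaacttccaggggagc
Ccl8: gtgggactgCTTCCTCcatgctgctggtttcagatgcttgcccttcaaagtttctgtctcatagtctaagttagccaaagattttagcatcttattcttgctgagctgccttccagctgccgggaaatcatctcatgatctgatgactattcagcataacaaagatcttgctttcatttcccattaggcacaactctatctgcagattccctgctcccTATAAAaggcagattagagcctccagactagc
TATAAA stood 31 to 26 bases before the start of Ccl12 and 32 to 27 bases before that of Ccl8, and 12.4% of 32851 mouse promoter windows of this length hold it on either strand. This motif was added after the sequences had been seen. GAGGAAG was held by 10.6% of these windows. Motifs of NF-kB (GGG, any 2 bases and TTTCC, in 1.41% of windows), of AP-1 (TGANTCA, 6.75%), of C/EBP (TTGCNNAA, 9.56%) and of interferon-stimulated elements (GAAA, any 2 bases and GAAA again, 2.98%) were looked for on both strands and did not occur in either window. A match is a description of the letters only.

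Barcodes with at least 1000 unique molecular identifiers (UMIs, 1 per captured RNA molecule) and at most 30% mitochondrial UMIs were kept as cells. PBS had 5249, 3-day WGP 4879 and 7-day WGP 4174 of them, with medians of 5755, 5754 and 8077 UMIs. PBS shared 9 barcodes with 3-day WGP and 1 with 7-day WGP, and the WGP libraries shared 5. Cells were clustered without the 5 genes, and a cluster was called X-like only from markers of X. Transcripts of Xist, found in females, and of Y-linked genes, found in males, were seen mostly in different cells of every library (Xist in 2039, 479 and 1208 cells and Y-linked genes in 1736, 2510 and 1865). The sexes were not spread evenly over cell types. Of the monocyte/macrophage-like cells of PBS, 793 held Xist and 10 held Y-linked RNA, against 84 and 492 in 3-day WGP and 574 and 594 in 7-day WGP. Sex and treatment can therefore not be fully told apart in these cells. Levels are CPM, the UMIs of a gene per 1000000 UMIs, summed over the cells of a class, with 95% intervals in parentheses that cover counting error only, so fewer positive cells and less RNA per cell have to be read from the shares of cells given beside them.

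The monocyte/macrophage-like class held 845, 777 and 1480 cells in PBS, 3-day WGP and 7-day WGP. It joined 4 clusters, and different clusters held most of it in each library. A cluster led by Pf4, Mrc1, Stab1 and C1qa, genes of resident macrophages, held 643 of its PBS cells, a cluster led by Saa3, Arg1 and Gpnmb held 425 of its 3-day cells, and a cluster led by Ly6i, Cxcl9 and Cxcl10 held 1113 of its 7-day cells. Every level of the class set side by side below therefore also compares these clusters.

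The ligand transcripts lay mostly in 1 class, and the receptor transcripts were spread over many. Over all cells Ccr2 stood at 266, 257 and 469 CPM in PBS, 3-day WGP and 7-day WGP, Ccl2 at 31.2, 43.9 and 81.2 and Ccl8 at 34.9, 62.96 and 28.9. Ccl7 stood at 17.5, 11.4 and 12.7 CPM and Ccl12 at 26.1, 5.83 and 7.83, both highest in PBS. The monocyte/macrophage-like class held 87.4, 78.3 and 80.7% of all ligand UMIs and 37.2, 49.4 and 67.4% of the Ccr2 UMIs. Most of the rest of Ccr2 lay in lymphoid and dendritic classes and, in PBS, also in cluster 21. Cluster 14 held 1.41, 0.0751 and 1.13% of the Ccr2 UMIs and neutrophil-like cells 0.122, 1.43 and 0.174%. These shares depended on the cells and the clustering used. With each library clustered on its own the 7-day shares were 49.8% of ligand and 31.9% of Ccr2 UMIs. In that clustering, 7-day clusters of 342 and 155 cells had monocyte/macrophage as their highest list, at mean log2 folds of 0.739 and 0.728. They fell below the naming limit of 1 and were not counted in the class. Without barcodes above 11915 UMIs the 3-day Ccr2 share was 25.1%.

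**Figure D1:**
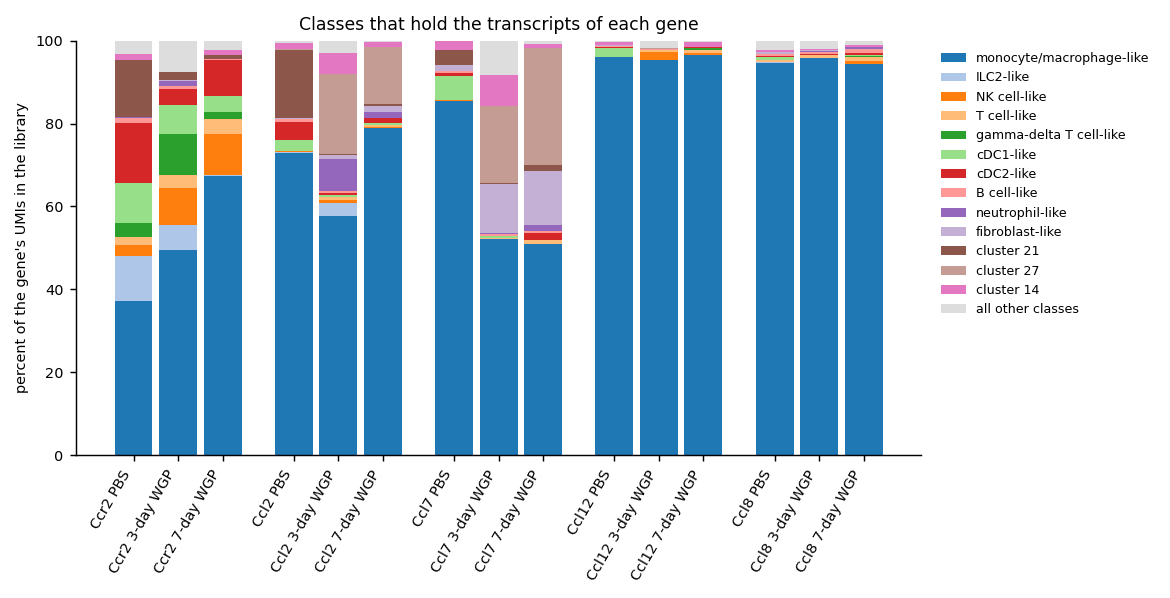
Share of all UMIs of each gene in a library that was held by each class (percent, bars sum to 100). Ccl12 and Ccl8 were held almost whole by the monocyte/macrophage-like class in every library (94.4% or more), whereas Ccr2 was spread over many classes in PBS and lay to 67.4% in this class in 7-day WGP.

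Among the classes that hold Ccr2, the highest level belonged to cluster 21, a small cluster without a name led by Retnla, Ear2, Lyz1 and Fn1. Its level was 1334, 1514 and 1574 CPM in PBS, 3-day WGP and 7-day WGP. It raised 7 of 12 monocyte/macrophage markers, and that list was nearly level with cDC2 (mean log2 folds of 0.370 and 0.355). It had 80, 10 and 4 cells and held 13.9, 2.04 and 0.863% of all Ccr2 UMIs. ILC2-like cells, innate lymphocytes that make type 2 cytokines, came next in PBS with 994 (941 to 1048) CPM and led the larger classes in 3-day WGP with 884 (824 to 947). In 7-day WGP there were 10 ILC2-like cells, at 521 (383 to 693) CPM, and their share of the Ccr2 UMIs went from 10.9% in PBS and 6.04% in 3-day WGP to 0.240%.

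Gamma-delta T cell-like cells, tissue lymphocytes that make IL-17, had 654 (593 to 720.4), 719 (681 to 759) and 907 (811 to 1010.2) CPM of Ccr2 and NK cell-like cells 519 (464 to 579), 593 (559.7 to 627) and 654 (625 to 684), both in the order PBS, 3-day WGP, 7-day WGP. In both the level was lowest in PBS and highest in 7-day WGP, and neither reached a 2-fold difference. The 2 conventional dendritic classes went the other way, and the make-up of the cDC2-like class also differed between the libraries. Within it, a group led by Cd209a, Mgl2 and Clec10a held 93 of 170, 9 of 85 and 14 of 223 cells. The part of this group in the Ccr2 levels was not tested. cDC2-like cells, which present antigen to CD4 T cells, had 725 (691 to 759.5), 519 (474 to 566) and 580.1 (553 to 608) CPM and cDC1-like cells, which cross-present to CD8 T cells, 577 (545 to 611), 493 (462 to 526) and 379.5 (353 to 407), both highest in PBS. Plasmacytoid DC-like cells, the interferon-producing dendritic cells, had 198, 424 and 337 CPM, 2.14-fold higher in 3-day WGP than in PBS. Neutrophil-like cells had 24.2, 155 and 51.8 CPM of Ccr2, in 3, 14 and 10 cells. Cluster 14, a mixed cluster without a name, had 389, 45.5 and 571 CPM. T cell-like cells held 104, 115 and 159.9 CPM, B cell-like cells 13.7, 16.9 and 10.8 and plasma cell-like cells 20.2, 30.1 and 20.8, and in fibroblast-like cells there were 0, 1 and 4 UMIs in all. As shares of cells after thinning to 1000 UMIs, Ccr2 was seen in 60.9, 55.2 and 50% of ILC2-like, 45.1, 49.5 and 60.3% of gamma-delta T cell-like, 32.5, 40.6 and 42.9% of NK cell-like and 40, 37.6 and 34.1% of cDC2-like cells.

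The order of the receiving classes of at least 20 cells differed between the libraries. In PBS it ran cluster 21, ILC2-like, cDC2-like, gamma-delta T cell-like, cDC1-like, NK cell-like and monocyte/macrophage-like, and from cDC2-like to monocyte/macrophage-like each neighbour's interval overlapped the next. In 3-day WGP it ran ILC2-like, gamma-delta T cell-like, NK cell-like, monocyte/macrophage-like, cDC2-like and cDC1-like, with overlap from NK cell-like onward. In 7-day WGP gamma-delta T cell-like and monocyte/macrophage-like cells led, ahead of NK cell-like and cDC2-like cells, and the intervals of the first 4 classes did not overlap. Where intervals overlap the order is not resolved at this depth.

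**Figure D2:**
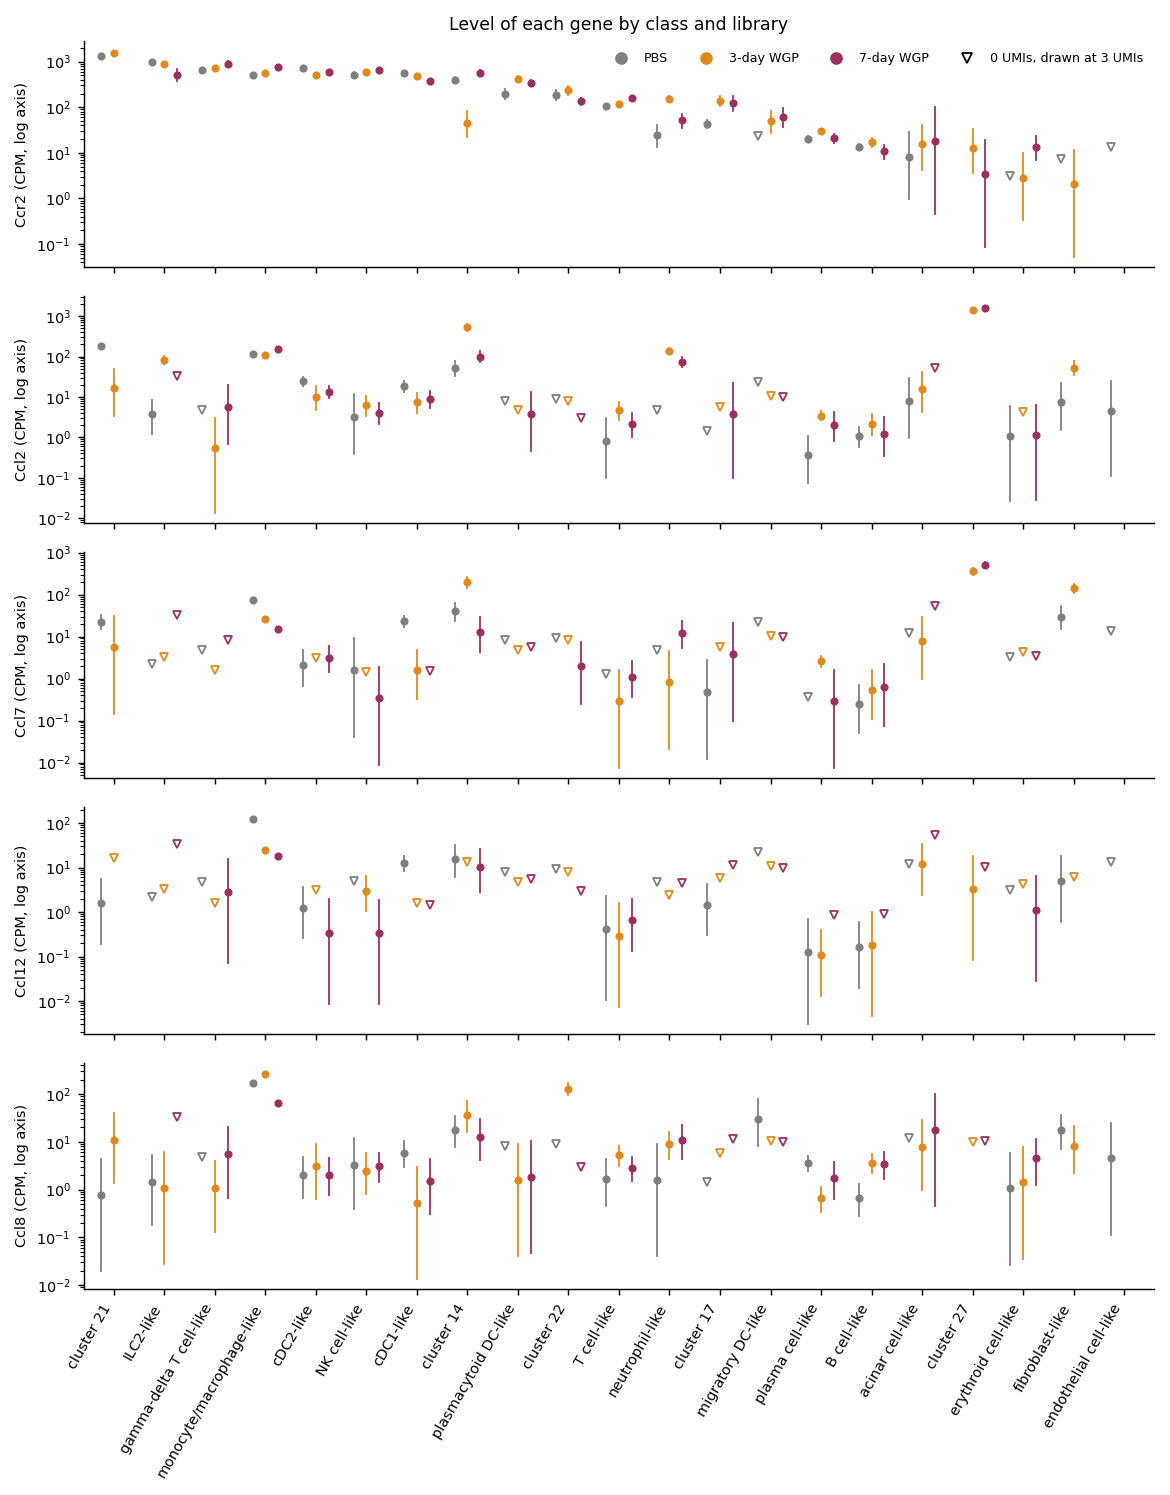
Level of each of the 5 genes (CPM, log axis) in each class and library, for classes of at least 10 cells in that library. Points are summed levels, bars are 95% Poisson intervals and open triangles mark 0 UMIs, drawn at the limit that a count of 0 allows (3 UMIs). The Ccr2 panel shows many receiving classes within a few fold of each other, while Ccl12 and Ccl8 peak in monocyte/macrophage-like cells and Ccl2 and Ccl7 in cluster 27 of the WGP libraries.

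In the monocyte/macrophage-like class Ccr2 was seen in 26.7, 27.03 and 42.5% of the cells of PBS, 3-day WGP and 7-day WGP after thinning (46.4, 45.2 and 73.4% unthinned). Of B cell-like cells, which should lack it, 0.410% and 0.239% held it in PBS and 3-day WGP, and in 7-day WGP 0 of 512 did, which allows up to 0.586% (median depths 3822, 4228 and 5024 UMIs, against 10091, 13984 and 10824.5 in monocyte/macrophage-like cells). In B cell-like cells every ligand stood at or below 3.60 CPM in each library. The class level of Ccr2 was 500.1 (486 to 515), 561 (548 to 575) and 756 (743 to 769) CPM. The PBS and 3-day values lay close together and the 7-day value 1.51-fold above PBS. Between 90 and 261 cells, 10.7 to 17.6% of the class, held 50% of its Ccr2 UMIs, so the receptor level did not rest on a few cells.

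Within the class, a further round of clustering gave 9 sub-clusters. Sub-cluster 2, Ly6C-high monocyte-like and led by Vcan, Ms4a4c and Ly6c2, had 26, 144 and 382 cells. Sub-cluster 0, inflammatory macrophage-like and led by Ly6i, Cxcl9 and Ccl5, had 15, 45 and 673, and sub-cluster 1, Arg1 macrophage-like, had 8, 397 and 255. Sub-cluster 1 also raised markers of large peritoneal macrophages, Cd5l and Prg4 among its leading genes. The mean log2 fold of that list was 1.87, against 2.68 for the Arg1 macrophage list. Sub-cluster 4, resident macrophage-like and led by Cd209f, Gas6, Cd163 and Folr2, had 227, 54 and 9. Sub-cluster 3 had 396, 58 and 30 cells and raised 8 of 12 resident macrophage markers. The mean log2 fold of this list, 0.879, was below the limit of 1, so the sub-cluster has no name. Igkc and Jchain, genes of plasma cells, led it. Igkc summed to 2658, 264 and 23.8 CPM in it and 236, 117 and 15.4 in sub-cluster 4, and their part in the levels of sub-cluster 3 was not tested. Sub-cluster 5 was Ly6C-low monocyte-like (122, 40 and 91), sub-cluster 7 was a resident macrophage-like group with Cxcl13, Vsig4 and Timd4 (35, 12 and 0), and sub-clusters 6 and 8 carried B or T cell markers, with 73.6% and 60% of their cells among the highest doublet scores.

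The sub-cluster with the highest Ccr2 level in both WGP libraries was the Ly6C-high monocyte-like one. Its level was 1545 (1384 to 1719), 1922 (1860.2 to 1986) and 1406 (1369 to 1443) CPM in PBS, 3-day WGP and 7-day WGP. After thinning 53.8, 75.7 and 62.3% of these cells held Ccr2. The 3-day level was the highest and the intervals of PBS and 7-day WGP overlapped, while these cells numbered 26, 144 and 382. They held 2.72, 27.3 and 28.4% of all Ccr2 UMIs of their library, and inflammatory macrophage-like cells held 2.37, 5.09 and 29.8%. Inflammatory macrophage-like cells had 1550.5 (1378 to 1739), 1159 (1074 to 1250.0) and 761 (742 to 781) CPM, the 7-day value being 2.04-fold below the PBS value, which came from 15 cells and whose interval overlapped that of the Ly6C-high monocyte-like cells. Ly6C-low monocyte-like cells had 759, 1069 and 879 CPM and sub-cluster 3 had 654, 775 and 742, and in both the interval of PBS lay below that of 3-day WGP and overlapped that of 7-day WGP.

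Resident macrophage-like cells of sub-cluster 4 held little Ccr2, 42.2, 125 and 0 CPM, and were the low end of the class together with Arg1 macrophage-like cells at 6.69, 110.0 and 71.4 CPM. In sub-cluster 4 Ccr2 was seen in 18 of 227, 9 of 54 and 0 of 9 cells, and 1 cell held 26 of its 58 3-day UMIs. Arg1 macrophage-like cells were the largest sub-cluster of 3-day WGP, yet held 5.78% of that library's Ccr2 UMIs, against 27.3% in the 144 Ly6C-high monocyte-like cells.

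**Figure D3:**
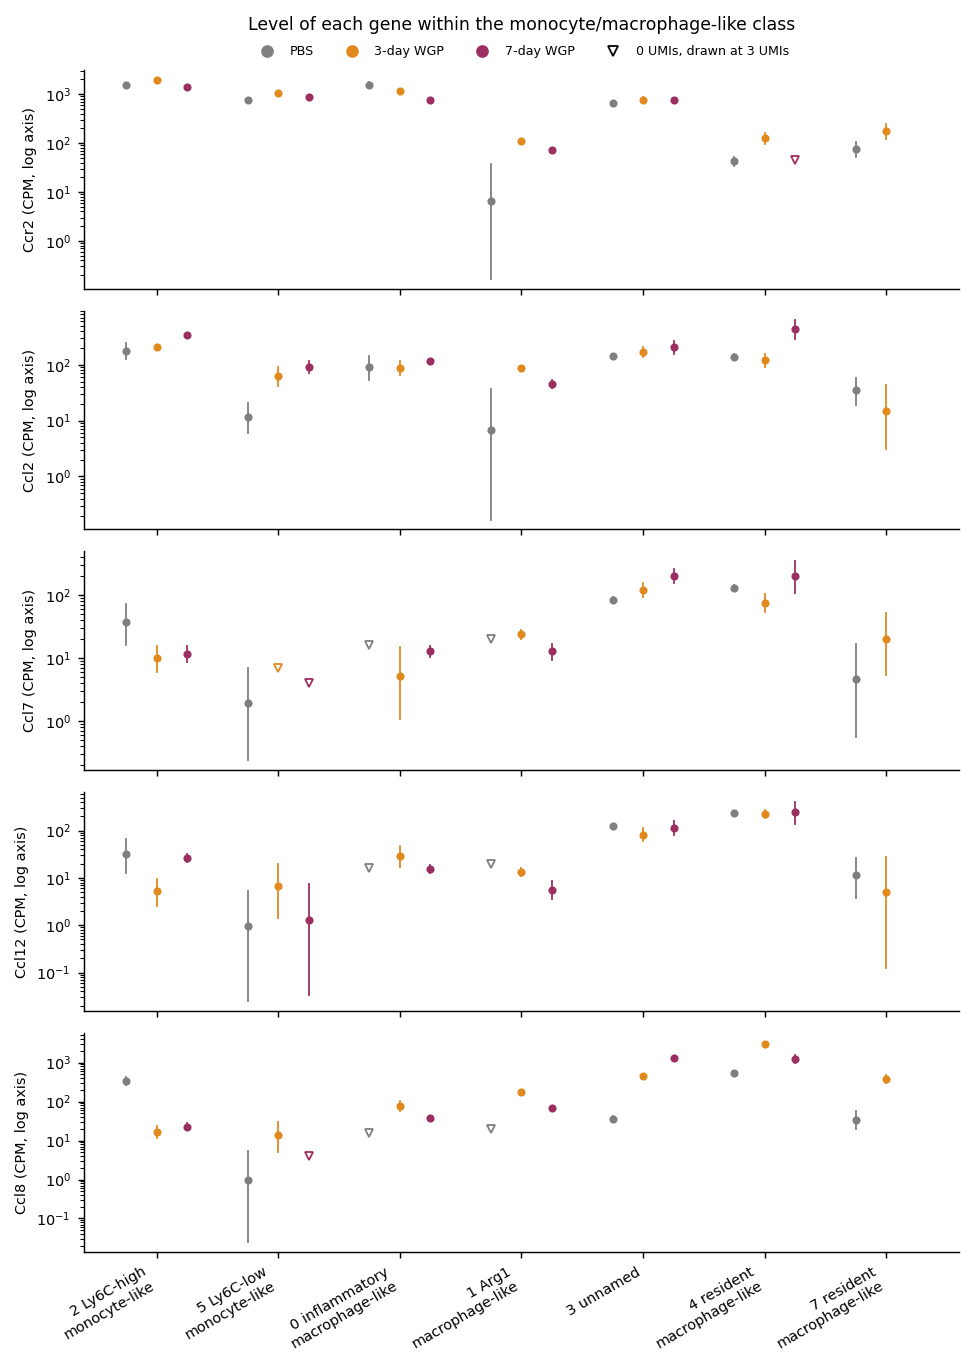
Level of each gene (CPM, log axis) in 7 sub-clusters of the monocyte/macrophage-like class with at least 5 cells in a library. Bars are 95% Poisson intervals and open triangles mark 0 UMIs drawn at 3 UMIs. Ccr2 is high in sub-clusters 2, 5, 0 and 3 and low in 1, 4 and 7, whereas Ccl7 and Ccl12 are highest in 3 and 4. Ccl8 is highest in 4 in PBS and 3-day WGP.

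Ccl2 was the ligand seen in most cells of the class in PBS and 7-day WGP, while in 3-day WGP Ccl8 was seen in 10.2% after thinning. Its class level was 115 (108 to 122), 112 (106 to 118) and 153 (148 to 159) CPM in PBS, 3-day WGP and 7-day WGP, and 8.76, 8.88 and 10% of the cells held it after thinning (30.2, 29.5 and 32.9% unthinned). The 3 libraries lay within 1.33-fold of PBS. Ly6C-high monocyte-like cells, the sub-cluster with the highest Ccr2 level in the WGP libraries, had 179.8 (128 to 246), 207 (187 to 229) and 346 (328 to 365) CPM. In 7-day WGP they held 40.4% of all Ccl2 UMIs in 201 of 382 cells. Resident macrophage-like cells of sub-cluster 4 had 138 (123 to 154), 121 (91.5 to 157) and 430.0 (286 to 621) CPM, the 7-day value resting on 5 of 9 cells. Sub-cluster 3 had 142, 172 and 208 and inflammatory macrophage-like cells 90.3, 89.04 and 114 CPM. Ly6C-low monocyte-like cells had the least in PBS among the sub-clusters of over 20 cells, 11.7, 62.1 and 90.8 CPM, with 5.32-fold more in 3-day and 7.78-fold more in 7-day WGP. Arg1 macrophage-like cells had 6.69, 86.00 and 45.3 CPM, the first from 8 cells with 1 UMI.

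Inside the class, Ccl7 and Ccl12 stood highest in sub-clusters 3 and 4. Ccl7, which like Ccl2 encodes an agonist of CCR2, stood in sub-cluster 4 at 129 (115 to 144), 75.7 (52.7 to 105) and 199.6 (106 to 341) CPM and in sub-cluster 3 at 82.7 (74.5 to 91.5), 121 (92.4 to 156) and 201 (153 to 259) (PBS, 3-day WGP, 7-day WGP). In sub-cluster 3 the 7-day value of Ccl7 rested on 1 cell with 31 of 59 UMIs and was 99.5 CPM without it. Every other sub-cluster of over 20 cells was at or below 36.9 CPM in each library. Ccl12 stood at 239 (219.9 to 260.1), 223 (182 to 270.3) and 246 (140.4 to 399) CPM in sub-cluster 4 and at 128 (118 to 139), 82.7 (59.4 to 112) and 116 (80.1 to 162) in sub-cluster 3. The intervals of Ccl12 in sub-cluster 4 overlapped between the 3 libraries, although 1 cell held 54 of the 103 3-day UMIs and without it the level was 109 CPM. Ly6C-high monocyte-like cells had 32.3, 5.28 and 27.01 CPM of Ccl12 and inflammatory macrophage-like cells 0, 29.1 and 15.6.

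Ccl8 was the ligand most confined to resident macrophage-like cells in PBS, where sub-cluster 4 held 78.5% of all its UMIs. In sub-cluster 4 the level was 546 (516 to 577), 2999 (2843 to 3161) and 1244 (988 to 1546) CPM in PBS, 3-day WGP and 7-day WGP. It was held by 97 of 227, 43 of 54 and 8 of 9 cells, 16.7, 55.6 and 77.8% after thinning, against 0.154%, 0.597% and 0% of B cell-like cells. Both the share of positive cells and the level were higher in the WGP libraries, 5.49-fold in level for 3-day WGP. As these cells numbered 227, 54 and 9, they held 42.5% and 6.72% of the Ccl8 UMIs of the WGP libraries.

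Sub-cluster 3 had 36.6 (31.2 to 42.7), 442 (385 to 504) and 1344 (1215 to 1483) CPM of Ccl8. The 7-day value was 612 CPM without 1 cell that held 220 of 395 UMIs, and stayed above the PBS level. Arg1 macrophage-like cells, absent but for 8 cells in PBS, had 0, 171 and 68.4 CPM and held 36.7% of the Ccl8 UMIs of 3-day WGP, in 63 of 397 cells. Ly6C-high monocyte-like cells had 346, 16.9 and 22.7 CPM, but 1 cell held 67 of the 75 PBS UMIs and the level without it was 37.7 CPM. In 7-day WGP 1 inflammatory macrophage-like cell held 171 of the 299 UMIs of sub-cluster 0. Over the whole class 50% of the Ccl8 UMIs lay in 11, 15 and 5 cells, against 32, 31 and 72 for Ccl2.

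For the class as a whole, each WGP library was compared with PBS. A gene was called where its level differed at least 2-fold and the counting interval of the ratio did not reach 1. In 3-day WGP, 2 of the 5 genes were called lower, Ccl7 and Ccl12, and 0 of 5 higher, where 7.10% of the 8165 genes of at least 10 CPM were called lower and 5.40% higher. Ccl7 fell from 75.4 to 26.3 CPM, a log2 ratio of -1.52 (-1.72 to -1.33), and Ccl12 from 127 to 24.6, -2.36 (-2.56 to -2.18). The other 3 genes were not called, Ccr2 with 0.17 (0.11 to 0.22), Ccl2 with -0.04 (-0.16 to 0.08) and Ccl8 with 0.67 (0.59 to 0.76), from 167 to 266 CPM.

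In 7-day WGP, 3 of the 5 genes were called lower and 0 higher, where 10.7% of 8126 genes were called lower and 5.67% higher. Ccl7 fell to 15.4 CPM, a log2 ratio of -2.29 (-2.50 to -2.09), Ccl12 to 18.1, -2.80 (-2.99 to -2.62), and Ccl8 to 65.1, -1.36 (-1.47 to -1.25). Ccr2 with 0.60 (0.55 to 0.65) and Ccl2 with 0.42 (0.31 to 0.52) were not called. Across all genes tested the median log2 ratio was -0.07 for 3-day and -0.17 for 7-day WGP. Scaling by TMM factors moved these medians to 0.07 and 0.09 and the numbers of genes higher and lower from 441 and 580 to 544 and 455 in 3-day WGP, and from 461 and 873 to 633 and 617 in 7-day WGP, with the same members called. Relative to the median gene the 7-day log2 ratios were 0.77 for Ccr2, 0.58 for Ccl2, -2.12 for Ccl7, -2.64 for Ccl12 and -1.19 for Ccl8. The calls depended on which cells and which mean were used. Without barcodes above 11915 UMIs the 3-day ratios of Ccl7 (-0.72) and Ccl12 (-0.74) and the 7-day ratio of Ccl8 (-0.68) missed 2-fold, and those of 3-day Ccl8 (1.75) and 7-day Ccl2 (1.21) passed it. In cells with Xist and no Y-linked RNA 3-day Ccl12 (-0.89) missed 2-fold and 3-day Ccl8 (1.08) passed it, and with the mean over cells 3-day Ccl8 (1.10) passed and 7-day Ccl8 (-0.80) missed.

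**Figure D4:**
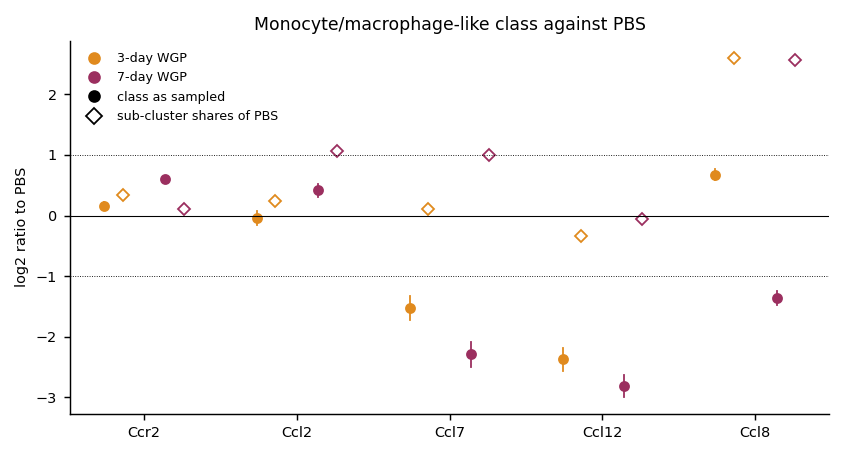
Log2 ratio of each gene between a WGP library and PBS in the monocyte/macrophage-like class (filled points, with 95% exact conditional binomial intervals) and with the sub-clusters weighted by their PBS shares (open diamonds). Dotted lines mark a 2-fold difference. The filled points of Ccl7 and Ccl12 lie below -1 in both comparisons, while their diamonds lie between -0.34 and 0.99, and the diamonds of Ccl8 stand at 2.60 and 2.56.

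When the sub-cluster levels of each library were weighted by the shares that the sub-clusters had in PBS, a calculation chosen after the data had been seen, the log2 ratios of 3-day and 7-day WGP to PBS were 0.12 and 0.99 for Ccl7, -0.34 and -0.05 for Ccl12, 2.60 and 2.56 for Ccl8, 0.24 and 1.07 for Ccl2 and 0.33 and 0.12 for Ccr2. The lower class levels of Ccl7 and Ccl12 went with fewer cells in sub-clusters 3 and 4, 623 of 845 cells in PBS, 112 of 777 in 3-day WGP and 39 of 1480 in 7-day WGP. The 7-day levels of these sub-clusters rest on the 39 cells, and single cells weighed heavily there for Ccl7 and Ccl8. Sub-clusters without cells in both libraries were left out, so the 3-day ratios used 8 sub-clusters and the 7-day ratios 7.

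Outside the class, Ccl2 and Ccl7 were held by a small cluster with stromal transcripts in the WGP libraries. This cluster, number 27, with 7, 12 and 12 cells, was led by Cxcl13, Dcn and Igfbp6 and detected 8 to 9 of 9 fibroblast markers and 8 of 8 mesothelial markers in each library, so it has no name. Its Ccl2 level was 18.4 (2.23 to 66.4), 1421 (1291 to 1560.2) and 1585 (1444 to 1736) CPM in PBS, 3-day WGP and 7-day WGP and its Ccl7 level 0 (0 to 33.9), 357 (293 to 430.0) and 510.2 (432 to 599). The 2 WGP libraries were far above PBS in both genes. In 3-day WGP 1 cell held 219 of 438 Ccl2 UMIs, and in 7-day WGP 1 cell held 391 of 466. Without these cells the Ccl2 levels were 813 and 294 CPM and the Ccl7 levels, without the top cell for Ccl7, 156 and 102. Cluster 27 held 0.138, 19.3 and 13.7% of all Ccl2 UMIs and 0, 18.6 and 28.4% of all Ccl7 UMIs of the libraries. Its summed monocyte/macrophage marker level was 119.5, 863 and 248 CPM, and its Ccr2 level 0, 12.97 and 3.40 CPM.

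Fibroblast-like cells, which make the collagen matrix, had 30.04 (15.5 to 52.5), 143 (112 to 181) and 344 (268 to 436) CPM of Ccl7 and 7.51 (1.55 to 21.9), 53.3 (34.8 to 78.05) and 215 (155 to 289) of Ccl2 in 26, 27 and 9 cells. Ccl7 was held by 4, 10 and 6 of them and Ccl2 by 2, 7 and 4. Single cells weighed heavily here too, and without the top cell the 7-day levels were 145 CPM of Ccl7 and 32.8 of Ccl2, and the 3-day level of Ccl7 75.9. Ccl8 and Ccl12 were scarce there, with 7, 4 and 0 UMIs of Ccl8 and 2, 0 and 0 of Ccl12 in fibroblast-like cells and 0, 0 and 0 and 0, 1 and 0 in cluster 27. The sort took live CD45+ cells, which stromal cells lack, so these cells are those that passed the gate and their number is not that of the stroma of the organ.

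A few cells with mast cell transcripts were a further Ccl2 source in 3-day WGP. Cluster 14, a mixed cluster led by Sst, Cma1, Clu and Mcpt4, had 51.4 (32.6 to 77.1), 532 (439.8 to 637) and 100.4 (71.4 to 137) CPM of Ccl2. In 3-day WGP 8 of its 70 cells held at least 5 UMIs of the mast cell protease genes Cpa3, Cma1, Mcpt4 and Tpsb2, a limit set after the data had been seen. Those 8 cells held 109 of the 117 Ccl2 UMIs and 42 of the 44 Ccl7 UMIs, and 8 of 8 held Ccl2. Over all classes there were 6, 23 and 5 such cells in PBS, 3-day WGP and 7-day WGP. The 3-day cells held 10.1% of that library's Ccl2 UMIs and 7.12% of its Ccl7 UMIs. The whole Ccl2 count of ILC2-like cells in 3-day WGP, 74 UMIs, lay in 2 of them.

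Neutrophil-like cells, first responders that are short-lived in tissue, held Ccl2 in the WGP libraries, with 0, 139 and 73.1 CPM in 0, 22 and 7 of 91, 243 and 196 cells. With 0 UMIs in PBS the 3-day level was at least 28.8-fold higher against the limit of 3 UMIs. Of the 172 UMIs in 3-day WGP, 33 lay in 2 cells with mast cell transcripts. Ccr2 was seen in 3, 14 and 10 of the neutrophil-like cells, and 9.89, 4.94 and 5.10% of them were among the highest doublet scores. The part of doublets in these counts was not tested. Cluster 21, the cluster with the highest Ccr2 level, had 185 (162 to 210.2), 16.7 (3.44 to 48.8) and 196 (121 to 299) CPM of Ccl2. It held 16.4% of the Ccl2 UMIs of PBS in 38 of 80 cells.

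Some cells held the receptor and a ligand together. After thinning, 14.2% of Ccr2-positive monocyte/macrophage-like cells of PBS held any ligand, against 22.5% of the others. In 3-day WGP these shares were 14.3% and 21.5%, and in 7-day WGP 16.1% and 11.9%. The order of the shares was thus opposite in 7-day WGP. Cells with both made up 3.79%, 3.86% and 6.82% of the class, where the product of the single shares gives 5.41%, 5.29% and 5.80%.

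For Ccl8 the share was lower among Ccr2-positive cells in every library. It was seen in 1.33%, 3.33% and 0.477% of Ccr2-positive cells and in 6.95%, 12.7% and 3.29% of the others. For Ccl2 the shares lay close together in PBS, 9.29% against 8.56%, and in 3-day WGP, 10.95% against 8.11%. No order is read from these. In 7-day WGP Ccl2 was seen in 13.4% of Ccr2-positive cells, against 7.52% of the others. Among Ly6C-high monocyte-like cells of 7-day WGP 62 of 382 held both the receptor and a ligand, 16.2% where the product gives 16.1%. Ccl2 and Ccl7 were seen together in 16 PBS cells of the class, 1.89% against a product of 0.435%.

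**Figure D5:**
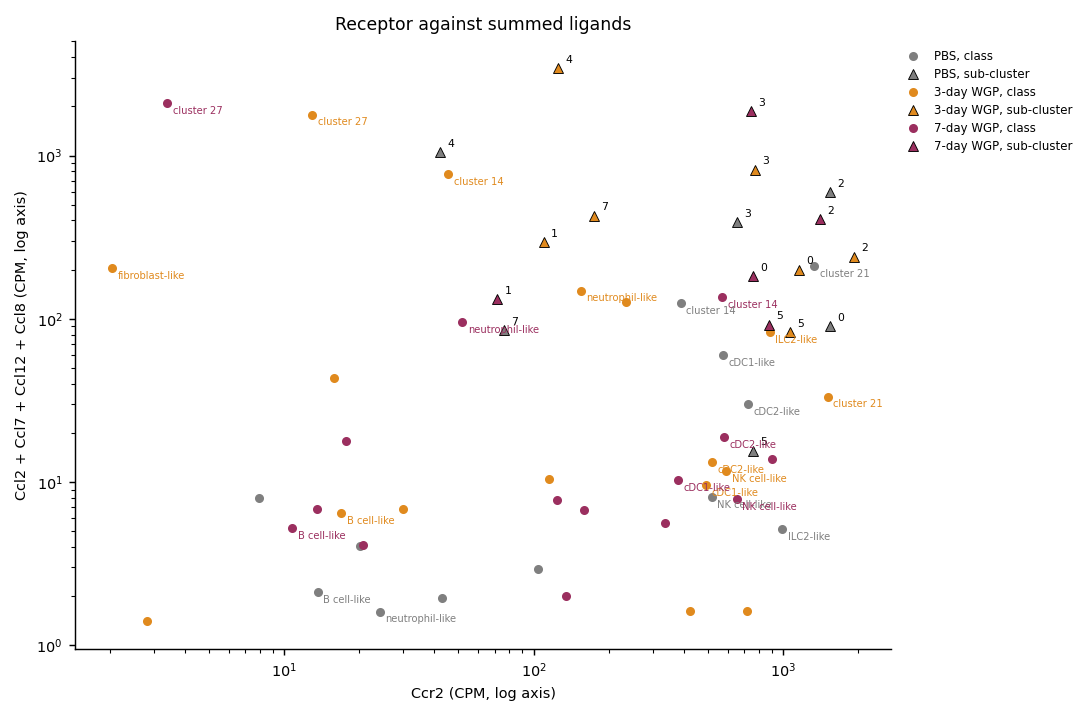
Summed ligand level against Ccr2 level (CPM, log axes) for classes (circles) and sub-clusters of the monocyte/macrophage-like class (triangles, numbered) by library, where both have at least 1 UMI. Some classes carry their name. Cluster 27 and sub-cluster 4 are high in ligands and low in receptor, NK cell-like and ILC2-like cells are the reverse, and sub-clusters 2 and 3 are high in both.

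Ccr2 and ligand levels were also taken apart by sex-linked transcripts. In resident macrophage-like cells of sub-cluster 4 the Ccl8 level was 536 CPM in Xist cells of PBS, and 2287 in the 15 Xist and 3360.2 in the 23 Y cells of 3-day WGP, so the 3-day level was also the higher one within Xist cells. Over the whole class the Ccr2 level of 3-day WGP was 832 CPM in Xist and 483 in Y cells, against 496 in Xist cells of PBS. The Ccl12 levels of 3-day WGP were 68.99 and 18.1 CPM in Xist and Y cells, and that of Xist cells was below the 128 CPM of PBS. In 7-day WGP the Xist and Y cells had 18.2 and 18.00 CPM of Ccl12. A list of 12 immediate early and heat shock genes that digestion can induce summed to 4538, 8860.4 and 10025 CPM in the class and to 3171 and 6342 CPM in sub-cluster 4 of PBS and 3-day WGP. Their part in the ligand levels was not tested.

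Other genes of the pathway were taken from a list of 22, of which 14 reached 10 CPM in the monocyte/macrophage-like class. In 3-day WGP 4 were called higher, 2 lower and 8 were not called, with a median log2 ratio of 0.04, where 5.40% of all genes tested were called higher and 7.10% lower. In 7-day WGP 3 were called higher, 4 lower and 7 were not called, with a median of 0.36, where 5.67% of all genes were called higher and 10.7% lower. With TMM factors, an alternative added after the data had been seen, the counts were 5 higher and 2 lower in 3-day WGP and 5 higher and 1 lower in 7-day WGP. Ccrl2, an atypical receptor that binds chemerin and does not signal, rose most, from 46.4 CPM to 252 and 421, log2 ratios of 2.44 and 3.18. Of the 5 adhesion genes of the list, 3 were called higher in 3-day WGP and 2 in 7-day WGP. Icam1 went from 46.3 to 96.3 and 171 CPM and the integrin gene Itgb2 from 226 to 622 and 474, while Itgam, its partner chain, rose in 3-day WGP by 1.35 and was not called in 7-day WGP (0.40).

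Cx3cr1, the fractalkine receptor of Ly6C-low monocytes and resident macrophages, fell from 316 to 77.3 and 60.5 CPM (log2 ratios of -2.03 and -2.38). Nckipsd, a gene of the fixed list, was called lower in both libraries (-1.20 and -1.09), and Arrb2, which uncouples chemokine receptors, and Pik3cg, the kinase downstream of their G proteins, in 7-day WGP only (-1.22 and -1.21, against -0.90 and -0.94 in 3-day WGP, where they missed 2-fold). With TMM factors these 7-day values were -0.85 for Nckipsd, -0.97 for Arrb2 and -0.97 for Pik3cg, all short of 2-fold, and 7-day Ccr1 (1.14), 7-day Itga4 (1.02) and 3-day Vcam1 (1.05) passed it. The inflammatory chemokine receptor Ccr1 (0.83 and 0.90) and the growth factor receptor Csf1r (-0.82 and -0.81) were not called. The class held 0 UMIs of Ccr8, the other receptor of CCL8, in all 3 libraries. The differences between the 2 time points were not tested.

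The patterns of the genes were also set against those of 7704 genes over 50 units of class and library with at least 20 cells, by Pearson's r of log2(CPM + 10). The units share libraries and are no replicates, so r describes likeness only. Nearest to Ccr2 were Fam105a, Coro2a, Iqgap2, Rgs2 and Laptm5 (r from 0.84 to 0.81). Nearest to Ccl8 were Fcna, Lyve1, Pf4, Prg4 and Cbr2 (r from 0.91 to 0.86). Of these, Lyve1 is on the marker list of resident macrophages and Prg4 on that of large peritoneal macrophages. Nearest to Ccl12 were Fcna, Siglec1, Cd209f, Ms4a7 and Lilra5 (r from 0.87 to 0.86). Ccl2 was nearest to Mitf, Hmox1, Fgd4, Fam20c and Gm21188 (r from 0.83 to 0.77) and Ccl7 to Igf1, Cp, C4b, Cxcl13 and Pmp22 (r from 0.87 to 0.81). Among the 5 genes themselves r was 0.74 for Ccl2 with Ccl7 and 0.71 for Ccl12 with Ccl8, and it lay between -0.02 and 0.28 for Ccr2 with each ligand.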

How the data were processed

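Live CD45+ cells of mouse pancreas had been profiled by droplet single-cell RNA sequencing in 3 libraries, 1 per group. The deposited counts are whole-number UMI counts per gene and barcode, which the authors made with Cell Ranger 3.1.0 on mm10. No value had been normalized and no barcode filtered by the authors in these tables, and 0 columns of values were left unused. The methods of the study also set a knee and inflection limit, removed empty droplets and limited ribosomal content. Those steps were tried here only as alternatives where the closing section names them.

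Barcodes with at least 1000 UMIs and at most 30% mitochondrial UMIs were kept, which removed 440, 206 and 347 barcodes over the mitochondrial limit. The kept cells held 46240979, 51793608 and 41749724 UMIs. Cells were clustered with Seurat 5.3.0 and sctransform 0.4.2 (R 4.3.3) on 3000 variable genes less the 5 genes studied, with 30 components and Louvain clustering at resolution 0.8. Monocyte/macrophage-like cells were clustered again at 0.4. So were the cells of cluster 11, by a rule set after the clusters were seen. Its migratory DC and cDC2 lists were too close to part (mean log2 folds of 2.14 and 1.91). The parts of cluster 11 were named from dendritic cell lists only, against all cells outside it. A cluster was named where the mean log2 fold of a marker list was at least 1 and led the next list by 0.5. At least 3 markers had to be raised, a limit set after the clusters were seen. Also after they were seen, names were withheld from clusters with several cell cycle or islet genes among their leading genes. This left cluster 14 (mast cell list highest) and cluster 22 (T cell list highest) without a name. Doublets were scored with Scrublet in scanpy 1.11.5, whose automatic limit marked 0, 1 and 1 cells and so did not work. The highest scores (220, 190 and 139 cells) were marked and removed only as an alternative.

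UMIs were summed per class and library and divided by the class total (CPM), with exact Poisson 95% intervals. Ratios had exact conditional binomial and shares exact Clopper-Pearson intervals. With 1 library per group no test was run and no p-value is given. Each cell was thinned to 1000 UMIs for shares of cells. A gene was called at 2-fold or more where the interval did not reach 1, among genes of at least 10 CPM in 1 of the 2 libraries. The fold calculation was tested on simulated data. The genes named are the 5 genes, those of the pathway list that were called, the 5 genes most like each in pattern and markers of the classes. A few not called (Ccr1, Csf1r, Ccr8, Itga4, Vcam1) were named after their values were seen, and 1 gene of the pathway list is not reported here. The genes and lists were chosen with earlier results of these data known.

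Gene positions and coding bases came from GENCODE vM21 (GRCm38, the build called mm10) and promoters from RefSeq. Python 3.11.15, numpy 2.4.6, scipy 1.17.1, pandas 2.3.3, matplotlib 3.10.9, edgeR 4.0.16 and DESeq2 1.42.0 were used, the last for scaling factors only, as was edgeR.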

Additional observations from a re-analysis of the deposited data

Results flagged for a closer look

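Ccl8 in the monocyte/macrophage-like class was singled out because its difference from PBS had opposite signs at the 2 time points, with a log2 ratio of 0.67 in 3-day WGP and -1.36 in 7-day WGP. With 1 library per time point the difference was not tested.

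Ccr2, Ccl2 and Ccl8 UMIs were also present in barcodes of at most 100 UMIs, which hold free RNA rather than cells and entered no comparison, at levels above those of PBS. Ccr2 stood at 318 CPM there in 7-day WGP, against 173 in PBS. Ccl2 stood at 97.7 CPM in 3-day and 98.0 in 7-day WGP, against 65.9. Ccl8 stood at 647 CPM in 3-day and 319 in 7-day WGP, against 162. These values come from 1 library each, and their part in the levels of cells was not tested.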

How the results depend on the processing

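No paired analysis was possible because each group is 1 library without a replicate number. No library was left out for the same reason. Counting error is the only error that the intervals cover, and differences between mice, libraries or clusterings are not in them. Ratios that rest on sub-clusters of under 20 cells or on 1 cell are the least certain. Values below are log2 ratios to PBS in the monocyte/macrophage-like class unless they are percentages, which are shares of a gene's UMIs held by that class. The cause of a shift was not tested. Of the values recomputed for the 5 genes, their shares and the numbers of genes called, 105 moved by more than their interval, 3 changed sign after having been called and 109 did neither. The ratios of Ccr2 and Ccl12 in both comparisons and of 3-day Ccl8 kept their sign in 13 of 13 alternatives, those of Ccl7 in both, of 7-day Ccl8 and of 7-day Ccl2 in 12 of 13, and that of 3-day Ccl2 in 8 of 13.

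With TMM factors Ccr2 stood at 0.30 (3-day) and 0.84 (7-day), Ccl2 at 0.094 and 0.66, Ccl8 at 0.81 and -1.11, 7-day Ccl7 at -2.05 and 7-day Ccl12 at -2.56. With median-of-ratios size factors Ccr2 stood at 0.30 and 0.85, Ccl2 at 0.10 and 0.67, Ccl8 at 0.81 and -1.11, 7-day Ccl7 at -2.04 and 7-day Ccl12 at -2.55. Size factors called 548 genes higher and 449 lower in 3-day and 636 and 610 in 7-day WGP, TMM factors 544, 455, 633 and 617, and no filter on low levels 718, 1617, 747 and 2281. With the mean of the CPM of single cells Ccr2 stood at 0.23 and 0.65, Ccl2 at 0.16 and 0.65, Ccl7 at -1.27 and -1.93, Ccl12 at -1.92 and -2.51 and Ccl8 at 1.10 and -0.80.

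Without barcodes above the knee of 11915 UMIs Ccl2 stood at 0.87 and 1.21, Ccl7 at -0.72 and -1.77, Ccl12 at -0.74 and -2.35, Ccl8 at 1.75 and -0.68 and 7-day Ccr2 at 0.67. The class then held 42.7, 25.1 and 66.3% of Ccr2 UMIs in PBS, 3-day and 7-day WGP and 91.9, 72.7 and 91.7% of ligand UMIs. At a minimum of 2000 UMIs the 3-day ligand share was 79.3%. Without marked doublets the PBS ligand share was 89.5% and the 7-day Ccr2 share 69.4%. With each library clustered alone the 7-day class held 985 cells. Clusters of 342 and 155 cells, whose highest list was monocyte/macrophage, had no name and lay outside it. In that run 7-day Ccr2 stood at 0.062, Ccl2 at -0.25, Ccl7 at -2.05, Ccl12 at -3.00 and Ccl8 at -0.86. The Ccr2 shares were 52.4% (3-day) and 31.9% (7-day) and the 7-day ligand share was 49.8%. Clustering log-normalized counts gave Ccr2 shares of 39.4, 51.1 and 68.3% and a 3-day ligand share of 79.4%.

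In cells with Xist and no Y-linked RNA 3-day Ccr2 stood at 0.74, 3-day Ccl2 at -0.32, Ccl7 at -2.04 and -1.90, 3-day Ccl12 at -0.89 and Ccl8 at 1.08 and -1.88, with Ccr2 shares of 43.4, 74.7 and 76.4% and ligand shares of 89.1, 83.8 and 92.2%. In cells with Y-linked RNA the Ccr2 shares were 0.942, 47.5 and 59.8% and the ligand shares 8.82, 85.0 and 70.5%, and no ratio is given because the PBS class held 10 such cells. Without thinning the shares of cells of the class were 46.4, 45.2 and 73.4% for Ccr2, 30.2, 29.5 and 32.9% for Ccl2, 18.6, 9.78 and 6.22% for Ccl7, 23.2, 10.4 and 8.85% for Ccl12 and 16.6, 21.1 and 6.42% for Ccl8.

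Besides TMM factors for the pathway list, a pair of alternatives was chosen after seeing the data. With the sub-cluster shares of PBS Ccr2 stood at 0.33 and 0.12, Ccl2 at 0.24 and 1.07, Ccl7 at 0.12 and 0.99, Ccl12 at -0.34 and -0.053 and Ccl8 at 2.60 and 2.56, so that Ccl7 in both comparisons and 7-day Ccl8 changed sign. Without sub-clusters 6 and 8, which carried B or T cell markers, 3-day Ccr2 stood at 0.10, the Ccr2 shares were 47.2% (3-day) and 66.3% (7-day) and the 3-day ligand share 77.2%.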

Other observations

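Ccr8, which encodes the main receptor of mouse CCL8 and is no CCR2 gene, was held by ILC2-like cells, with 11.1, 19.8 and 66.6 CPM in PBS, 3-day WGP and 7-day WGP, the last from 10 cells. In the other classes in which Ccr8 was measured it lay at or below 1.25 CPM. Ccr8 was not measured in plasma cell-like, acinar cell-like, erythroid cell-like and migratory DC-like cells or in some unnamed clusters. By level (CPM), ILC2-like cells were also next to cluster 21 for Ccr2 in PBS, while most Ccl8 UMIs lay in monocyte/macrophage-like cells.

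Cluster 22, a mixed cluster without a name, raised 7 of 8 T cell markers. Its leading genes included Elane, Prtn3 and Mpo, genes of granulocyte precursors, and Pclaf, Top2a and Rrm2, genes of dividing cells. It held Ccl8 in 3-day WGP, with 127 CPM in 12 of 33 cells. There were 0 UMIs in its 16 cells of PBS and its 40 cells of 7-day WGP. Its summed monocyte/macrophage marker level was 100.3, 3086 and 2027 CPM in PBS, 3-day WGP and 7-day WGP. The 3-day UMIs were not held by 1 cell, since the top cell had 9 of 47.

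Some ligand counts outside the macrophages came from single cells. In cDC1-like cells of PBS 1 cell held 98 of 124 ligand UMIs, and in plasma cell-like cells of 3-day WGP 1 cell held 101 of 124. The same was true within the macrophages for Ccl8, where 1 cell of sub-cluster 2 in PBS, 1 of sub-cluster 3 in 7-day WGP and 1 of sub-cluster 0 in 7-day WGP each held more than 50% of the UMIs of their sub-cluster.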
